A study of Homo sapiens with 2 samples.

Results

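Receptor tyrosine kinases other than FGFR3 were examined as a set of 10 genes, chosen by name as receptors linked to drug resistance in melanoma or to the growth of myeloma: FGFR1, FGFR2, FGFR4, EGFR, ERBB3, MET, IGF1R, KIT, PDGFRB and AXL. All 10 were among the 18930 genes of the deposited table. The study sequenced RNA from 1 library labelled DR, for dacarbazine (DTIC)-resistant cells, and 1 library labelled WT, for the wild-type control. Both carry the labels skin, A375 (a human melanoma cell line) and melanoma, and both carry a label of 105 days of treatment with DTIC (spelled DITC there), the WT-labelled library included. The methods describe DR cells as those viable after exposure to rising concentrations of DTIC, an alkylating drug.

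Each library was tied to its count column by the sample description. The descriptions of the libraries differ by 1 punctuation mark and neither says wild type, while the title of the sample labelled WT holds wt and that of the other sample holds BR_5. Every direction below rests on the descriptions. With 1 library per label there was no replicate check and no p-value was computed. Intervals are 95% intervals of read counting and compare the 2 libraries, not the conditions. The libraries held 54878310 reads (labelled DR) and 35294629 reads (labelled WT), and 3 reads were worth 0.0540 and 0.0861 CPM, reads scaled to a common library size. The labelled cell type was checked against marker genes. Of 10 melanocytic genes with counts, 7 were under 1 CPM in both libraries, SOX10 with 3 and 0 reads among them, and 1, MITF, exceeded 10 CPM. Of 12 plasma cell genes, 11 exceeded 10 CPM in each library, and JCHAIN, the joining chain of immunoglobulins, reached 2012 CPM in the DR-labelled library and 2917 CPM in the WT-labelled library. The defining markers of melanoma cells were therefore mostly near 0, and the libraries are named by their labels only.

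Receptor tyrosine kinases are single-pass membrane proteins whose outer part binds a growth factor and whose inner part is a kinase. Ligand binding brings receptors together, the kinases phosphorylate one another, and adaptors bound to the phosphorylated tails pass the signal to the MAPK and PI3K pathways. FGFR1, FGFR2 and FGFR4 bind fibroblast growth factors, IGF1R binds insulin-like growth factors, MET binds hepatocyte growth factor, KIT binds stem cell factor, PDGFRB binds platelet-derived growth factors and AXL binds GAS6. EGFR binds EGF and its relatives, and ERBB3 binds neuregulins and, having little kinase activity of its own, signals through partner receptors. In myeloma IGF1R and FGFR3 are known growth receptors. EGFR and AXL are known for high levels in dedifferentiated, drug-tolerant melanoma, and KIT for its role in melanocytes, among other cells.

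In these libraries 6 of the 10 receptors were at least 2-fold higher in the DR-labelled library on the scale used for calls, and 0 were at least 2-fold lower. The 6 were PDGFRB, KIT, FGFR1, FGFR4, FGFR2 and MET. IGF1R was the most abundant of the 10 in both libraries and differed little between them, at 99.9 and 84.5 CPM. EGFR had 10 reads in the DR-labelled library and 1 read in the WT-labelled library, and ERBB3 and AXL lay slightly lower in the DR-labelled library with intervals that include 0. Calls were made where the log2 fold change on log2(CPM + 0.5) was 1 or more in size, for genes whose reads in the libraries summed to 10 or more. Of the 16210 genes tested, 7.48% were called higher and 4.16% were called lower in the DR-labelled library. Since low genes pass a fold more often, the shares were also taken over the 5428 genes with a mean of 1 to 20 CPM, a range chosen after seeing the data. They were 14.1% higher and 6.28% lower, and 8 of the 10 receptors have means in that range, among them all 6 that were called. The median log2 fold change of the 10 receptors was 1.18, against 0.01 over all genes tested. All 10 passed the minimum of 10 reads, but PDGFRB, KIT and EGFR did so only through their reads in the DR-labelled library, where they were higher, so that the count and the median are given as a description only.

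**Figure D1:**
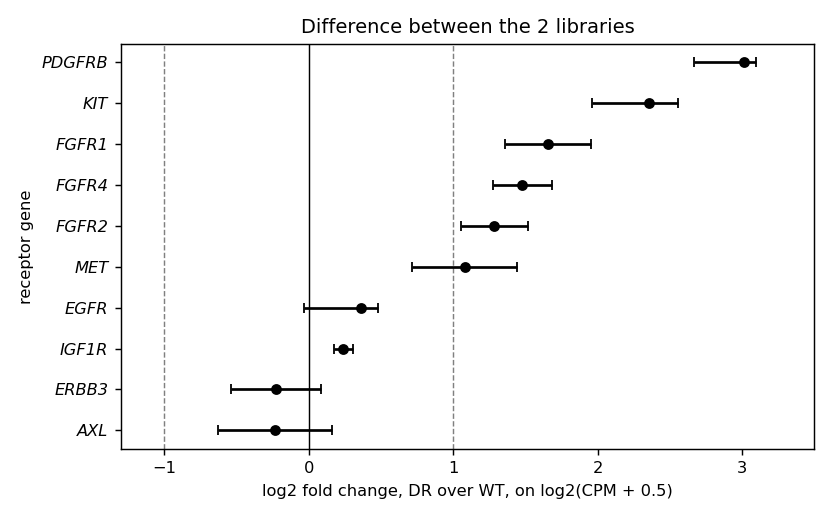
Log2 fold changes of the 10 receptor genes, the DR-labelled library over the WT-labelled library, on log2(CPM + 0.5), from 1 library each. Points are values, bars are 95% intervals of read counting, and dashed lines mark -1 and 1. PDGFRB lies farthest right at 3.01, and AXL farthest left at -0.23.

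The 3 fibroblast growth factor receptors of the set went the same way. FGFR4 (NCBI Gene 2264) had 981 reads in the DR-labelled library and 210 in the WT-labelled library, or 17.7 and 6.02 CPM. Its CPM were 2.93 times higher in the DR-labelled library (interval 2.52 to 3.42), a log2 fold change of 1.48. FGFR2 (NCBI Gene 2263) had 672 and 163 reads, or 12.1 and 4.68 CPM, a ratio of 2.59 (2.18 to 3.09). All 3 of these receptors were thus higher in the DR-labelled library, and the intervals of their ratios overlap in every pair. FGFR1 (NCBI Gene 2260) had 461 and 80 reads, or 8.30 and 2.29 CPM, a ratio of 3.62 (2.85 to 4.64) and the largest log2 fold change of the 3, at 1.65. In the GENCODE annotation, exons of FGFR1 overlap those of LETM2 on the opposite strand. Reads in the overlapping stretches cannot be told apart unless strand was used in counting, which is not given in the sources used here. How long these stretches are was not analysed here. LETM2 itself had 6.57 and 5.85 CPM. The annotation also places a protein-coding gene, AC034102.2, over exons of ERBB3 on the same strand, and antisense genes over exons of FGFR1, AXL and EGFR, none of which was analysed here. FGFR3, the family member left out of the set, went the other way, with 187 and 45402 reads. Levels of different genes are compared per length only, as CPM per kilobase (CPM per kb) of the gene length in the deposited table. On that scale FGFR1, FGFR2 and FGFR4 summed to 11.0 in the DR-labelled library and 3.78 in the WT-labelled library, whereas all 4 FGF receptors summed to 11.8 and 306. The 3 receptors therefore made up 93.4% of FGF receptor transcript in the DR-labelled library and 1.23% in the WT-labelled library.

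PDGFRB and KIT belong to 1 structural class of receptors, with immunoglobulin-like outer domains and a split kinase domain, and both were nearly absent from the WT-labelled library. PDGFRB (NCBI Gene 5159), a receptor best known from pericytes and fibroblasts, had 209 reads in the DR-labelled library and 1 read in the WT-labelled library. These are 3.76 and 0.0287 CPM, a ratio of 131 whose interval runs from 23.3 to 5204 because of the single read. KIT (NCBI Gene 3815) had 139 and 3 reads, or 2.50 and 0.0861 CPM, a ratio of 29.1 (9.74 to 143). Their log2 fold changes, 3.01 and 2.36, are much smaller than these ratios because 0.5 CPM is added to both sides. In the WT-labelled library both genes lay at or under the level that 3 reads are worth, so that their order there cannot be read. PDGFRA, the sister gene of PDGFRB, had 2 and 0 reads.

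Markers of mesenchymal, endothelial and mast cells were measured beside PDGFRB and KIT, and no list of pericyte markers was used. Of 7 mesenchymal or fibroblast markers with counts, 3 were tested and 2 of these were higher in the DR-labelled library, FBN1 (6.28 and 2.70 CPM) and COL1A1 (10.3 and 3.13 CPM). The summed level of all 7 was 16.9 CPM in the DR-labelled library and 5.94 CPM in the WT-labelled library, while COL1A2 had 1 and 0 reads and COL3A1 0 and 1 reads. Of 4 endothelial markers with counts, 3 were tested and 2 were called higher, PECAM1 (15.8 and 7.54 CPM) and VWF (1.998 and 0.717 CPM). The others had few reads, KDR with 9 and 5 and CLDN5, not tested, with 1 and 7. The summed endothelial level was 17.9 and 8.61 CPM. Among all genes tested, 7.48% were called higher in the DR-labelled library. The part of these cell types in the difference of PDGFRB was not tested. For KIT, the 3 mast cell markers with counts summed to 1.48 and 1.72 CPM, and none of them was called. In bulk RNA, fewer cells that express a gene and less RNA per cell cannot be told apart.

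The promoters of KIT and PDGFRB, the members that were nearly absent from the WT-labelled library, are shown. That of IGF1R, the most abundant of the 10 and not called, is shown with them. Each of the 3 has a single start in the RefSeq table (GRCh38.p14), as does MET, whose window is not shown. Each sequence is the 250 bases before the start, 5′ to 3′ on the gene's strand, with the GC box GGGCGG (or CCGCCC, its reverse complement) in capitals. They lie at chr4:54657707-54657956 (KIT, plus strand), chr5:150155846-150156095 (PDGFRB, minus strand) and chr15:98648289-98648538 (IGF1R, plus strand).
KIT: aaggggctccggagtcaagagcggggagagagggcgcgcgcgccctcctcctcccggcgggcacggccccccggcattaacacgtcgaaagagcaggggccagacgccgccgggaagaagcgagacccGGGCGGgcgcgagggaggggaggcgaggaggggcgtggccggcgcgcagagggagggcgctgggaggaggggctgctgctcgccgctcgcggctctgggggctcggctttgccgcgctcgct
PDGFRB: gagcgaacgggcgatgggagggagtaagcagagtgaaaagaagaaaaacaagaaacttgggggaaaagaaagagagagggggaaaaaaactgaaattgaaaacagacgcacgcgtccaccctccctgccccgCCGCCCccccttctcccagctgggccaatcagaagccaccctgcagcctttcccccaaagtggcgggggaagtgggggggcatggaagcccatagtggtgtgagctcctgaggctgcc
IGF1R: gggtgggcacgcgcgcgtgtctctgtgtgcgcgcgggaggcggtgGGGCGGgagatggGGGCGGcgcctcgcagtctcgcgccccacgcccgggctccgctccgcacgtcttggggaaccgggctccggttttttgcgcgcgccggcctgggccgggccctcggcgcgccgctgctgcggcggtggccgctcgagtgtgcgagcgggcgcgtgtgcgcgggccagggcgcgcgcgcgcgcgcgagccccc
The windows differ most in CpG dinucleotides, of which IGF1R had 48, KIT 34 and PDGFRB 9, against a median of 11 over 35116 RefSeq promoter windows. G and C made up 81.2% of the IGF1R window, 76.4% of that of KIT and 58.4% of that of PDGFRB, with a median of 58.0% over all windows. The GC box was found 2 times in the window of IGF1R and once each in those of KIT and PDGFRB, and 42.6% of all windows hold it on either strand. The TATA motif TATAAA (or TTTATA) was in none of the 3 windows and in 10.7% of all windows. The window of MET held 24 CpGs and 2 GC boxes, and G and C made up 68.4% of it. Of the 10 receptors, 8 matched the promoter table, with 15 windows in all. Among these windows, 9 held a GC box and 1, an internal start of EGFR, held the TATA motif. The pair that was nearly absent from the WT-labelled library thus joins 1 CpG-rich window and 1 with fewer CpGs than the median. These counts describe letters and not binding sites.

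MET and IGF1R are receptors whose ligands were measured in the same libraries. MET (NCBI Gene 4233) had 189 reads in the DR-labelled library and 47 in the WT-labelled library, or 3.40 and 1.35 CPM, a ratio of 2.52 (1.82 to 3.55). Its log2 fold change of 1.08 passed the threshold, but its interval, 0.71 to 1.44, includes 1. Of 8 epithelial markers with counts, 7 were tested and 1 (14.3%), CDH1, was called higher in the DR-labelled library (26.6 and 8.35 CPM). Beside it, 7.48% of all genes tested were called higher, and 14.1% of the genes with a mean of 1 to 20 CPM. Of the 7 markers tested, 5 had log2 fold changes above 0, KRT10 among them at 0.01. KRT5 (3.47 and 7.43 CPM, -0.997) and KRT14 (-0.22) lay below 0. The summed level of the 8 was 285 and 191 CPM, of which KRT18 held 164 and 114 CPM. The part of such cells in the difference of MET was not tested. HGF, the ligand of MET, had 601 and 73 reads, or 10.8 and 2.09 CPM, with a log2 fold change of 2.13 (1.83 to 2.42). MET and HGF were thus both higher in the DR-labelled library. IGF1R (NCBI Gene 3480) had 5549 and 2947 reads, a ratio of 1.18 (1.13 to 1.24) and a log2 fold change of 0.24 (0.17 to 0.30). The interval excludes equality of the libraries by read counting, but the difference is far under the threshold. IGF1, a ligand of IGF1R, had 1572 and 194 reads, or 28.3 and 5.56 CPM, with a log2 fold change of 2.25 (2.05 to 2.45), the largest among the ligands tested. For this pair only the ligand was called.

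ERBB3, AXL and EGFR were not called. ERBB3 (NCBI Gene 2065) had 147 reads in the DR-labelled library and 111 in the WT-labelled library, or 2.65 and 3.18 CPM, and a log2 fold change of -0.23 (-0.54 to 0.09). AXL (NCBI Gene 558) had 69 and 54 reads, or 1.24 and 1.55 CPM, and a log2 fold change of -0.23 (-0.63 to 0.16). For both genes a 2-fold difference in either direction lies outside the interval, while smaller differences could not be resolved at this depth. EGFR (NCBI Gene 1956) had 0.180 CPM in the DR-labelled library and 0.0287 CPM in the WT-labelled library. Its ratio of 6.27 has an interval from 0.893 to 272, so that a difference of EGFR was not detectable at this depth. Fractional estimated counts were deposited for 6 of the 10 receptors, namely FGFR1, FGFR2, FGFR4, ERBB3, MET and AXL, and how reads were divided between genes is not given in the sources used here. EGFR, IGF1R, KIT and PDGFRB had whole numbers, and of these KIT and PDGFRB were called.

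By level per length, IGF1R led in both libraries, at 11.4 CPM per kb in the DR-labelled library and 9.67 CPM per kb in the WT-labelled library. FGFR4 (5.79 and 1.98 CPM per kb) and FGFR2 (3.27 and 1.26 CPM per kb) followed in both. In the DR-labelled library the order then ran from FGFR1 (1.95) through ERBB3 (0.813), PDGFRB (0.711), MET (0.578), KIT (0.486) and AXL (0.267) to EGFR (0.0382). Neighbours from ERBB3 to KIT in that order were not separated by their counting intervals, and all other neighbours were. In the WT-labelled library the order after FGFR2 was ERBB3 (0.979), FGFR1 (0.540), AXL (0.333), MET (0.229), KIT (0.0167), EGFR (0.00609) and PDGFRB (0.00542). There FGFR2 and ERBB3 were not separated, nor FGFR1 and AXL, AXL and MET, or KIT, EGFR and PDGFRB.

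**Figure D2:**
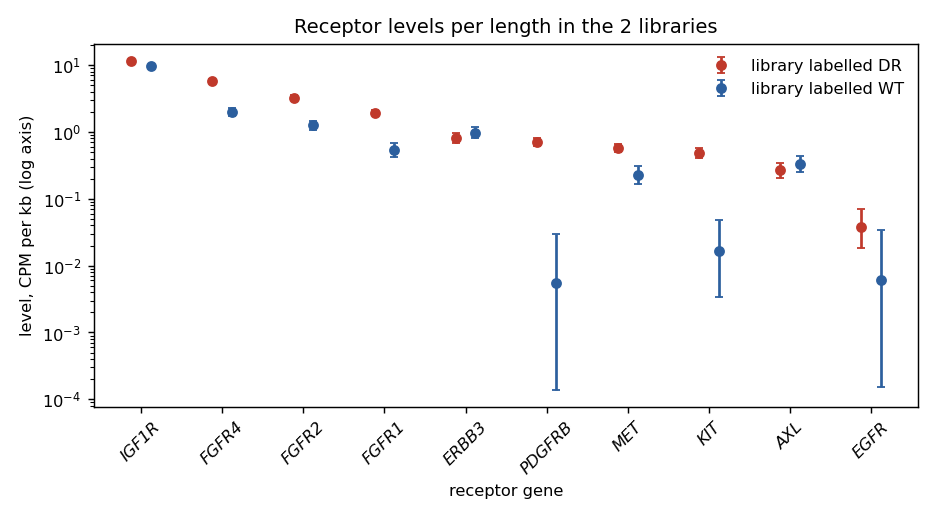
Levels of the 10 receptor genes per length, in CPM per kb on a log axis, in the DR-labelled library (red) and the WT-labelled library (blue), ordered by the DR-labelled library. Points are single libraries and bars are 95% intervals of read counting. IGF1R is highest in both at 11.4 and 9.67 CPM per kb, and the points of PDGFRB and KIT lie farthest apart.

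None of these receptors was an abundant transcript. IGF1R stood at percentile 62.1 of all genes tested by level per length in the DR-labelled library and at 58.1 in the WT-labelled library. The other 9 were below the median of all genes tested in both libraries, the highest being FGFR4 at percentiles 47.8 and 34.3. Together the 10 receptors summed to 25.3 CPM per kb in the DR-labelled library and 15.0 CPM per kb in the WT-labelled library. Without IGF1R the sums were 13.9 and 5.35. IGF1R thus made up 45.1% of the summed level of the 10 in the DR-labelled library and 64.4% in the WT-labelled library.

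FGFR4 had the highest mean level of the receptors called, and the genes nearest to it in log2(CPM + 0.5) over the 2 libraries were found. They were CYTH4 at a distance of 0.03 on the log2 scale (17.4 and 5.97 CPM), RARRES3 at 0.04 (17.3 and 6.14 CPM) and CELSR2 at 0.11 (17.2 and 6.48 CPM). Such nearness over 2 libraries says only that the values are alike.

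The other human receptor tyrosine kinases were measured for comparison. Of the 48, 47 had counts and 40 were tested, with a median log2 fold change of 0.25. Of the 40, 7 (17.5%) were called higher and 4 (10.0%) lower in the DR-labelled library, beside 7.48% and 4.16% of all genes tested. Among the 7, EPHA7, with 35 and 1 reads, passed the minimum of 10 reads only through the DR-labelled library. FGFR3 was the most extreme, at 3.37 CPM in the DR-labelled library and 1302 CPM in the WT-labelled library, a log2 fold change of -8.40 (-8.58 to -8.21). EPHB2, an ephrin receptor, was also lower, at 4.97 and 42.8 CPM (-2.99), as was NTRK3, a neurotrophin receptor, at 4.90 and 19.4 CPM (-1.89). ROR2, a WNT5A receptor, was higher, at 15.0 and 1.35 CPM, with a log2 fold change of 3.07 (2.74 to 3.39). Its interval overlaps that of PDGFRB (3.01, 2.67 to 3.10). By plain CPM ratio PDGFRB was above ROR2, at 131 (23.3 to 5204) against 11.1 (8.29 to 15.3). INSR, the insulin receptor, had 86.4 and 129 CPM and a log2 fold change of -0.58, under the threshold, while its close relative IGF1R had a log2 fold change of 0.24.

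The summed level of all 57 receptor tyrosine kinases with counts was 121 CPM per kb in the DR-labelled library and 402 CPM per kb in the WT-labelled library. The 10 receptors held 21.0% and 3.73% of it. FGFR3 alone held 0.648% and 75.2%, so that it held most of the receptor transcript in the WT-labelled library. With FGFR3 left out, the 10 held 21.1% in the DR-labelled library and 15.1% in the WT-labelled library, of totals of 119.9 and 99.8 CPM per kb.

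**Figure D3:**
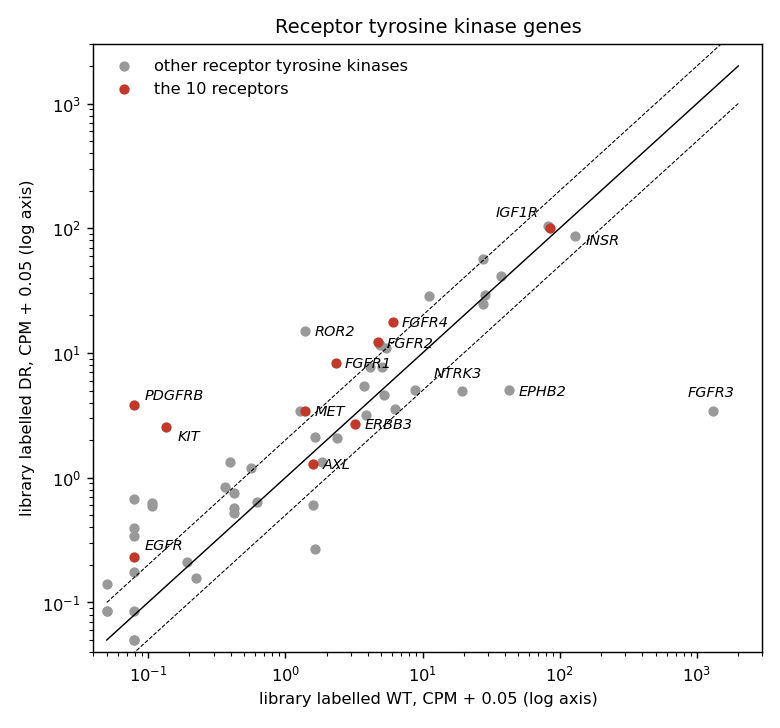
Levels of 57 receptor tyrosine kinase genes in the WT-labelled library (x axis) and the DR-labelled library (y axis), in CPM plus 0.05 on log axes, with 1 point per gene. Red points are the 10 receptors, gray points the others, the solid line marks equal levels and the dashed lines 2-fold differences on these axes. FGFR3 lies far to the right at 1302 CPM in the WT-labelled library, and PDGFRB and KIT lie above the upper dashed line at the left.

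Genes listed as ligands of the 10 receptors were called in both directions. Of 39 ligand genes, 33 had counts and 28 were tested, with a median log2 fold change of -0.01. Of the 28, 7 (25%) were higher and 3 (10.7%) lower in the DR-labelled library, beside 7.48% and 4.16% of all genes tested. Among the 7, KITLG and BTC, the latter with 39 and 3 reads, passed the minimum of 10 reads only through the DR-labelled library. IGF1 and HGF, described above, led upward, and NRG2, a neuregulin, followed at 3.44 and 0.717 CPM (1.69). NRG3, a neuregulin known to bind ERBB4 rather than any of the 10 receptors, was lower in the DR-labelled library at 1.85 and 7.43 CPM (-1.75), and ERBB4 had 5 and 0 reads. GAS6, the ligand of AXL, had the most reads of the ligands, at 447 and 243 CPM, with a log2 fold change of 0.88 (0.84 to 0.92) that stayed under the threshold. TGFA, a ligand of EGFR, was next, at 57.0 and 38.7 CPM (0.55). EGFR had almost no reads in either library although TGFA had 3165 and 1349. Some ligand genes were named after their values were seen. KITLG, the ligand of KIT, had 66 and 4 reads (1.46). FGF2 had 219 and 40 reads (1.43), and IGF2 had 96 and 12 reads (1.40). PDGFA, also named in this way and known to bind PDGFRA rather than PDGFRB, had 111 and 213 reads (-1.40). KIT and its ligand KITLG were both called higher in the DR-labelled library. Both passed the minimum of 10 reads only through that library, so that the pair is given as a description only. For PDGFRB, the ligand gene PDGFB was not called, at 31.9 and 16.6 CPM (0.93).

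Coreceptors and ligand-binding proteins numbered 14, all tested, with 2 higher and 2 lower and a median log2 fold change of -0.14. Each direction is 14.3% of the list, beside 7.48% higher and 4.16% lower of all genes tested. IGFBP2, which binds insulin-like growth factors, was higher in the DR-labelled library at 4.70 and 0.660 CPM (2.16). The syndecans, heparan sulfate proteoglycans that help fibroblast growth factors bind their receptors, went both ways. SDC4 was higher at 4.91 and 1.41 CPM (1.51), and SDC2 (5.65 and 36.5 CPM, -2.59) and SDC3 (7.001 and 16.6 CPM, -1.18) were lower. IGFBP3, the main carrier of insulin-like growth factors in serum, had 591 and 418 CPM (0.50), and IGF2R, which clears IGF2, had 542 and 541 CPM (0.00). SDC1, a syndecan and also 1 of the plasma cell markers, had 369 and 565 CPM (-0.62).

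Genes that act after the receptors are given beside the 7.48% higher and 4.16% lower of all genes tested. Of 28 adaptors and effectors, 26 were tested, of which 1 was higher and 1 lower, with a median log2 fold change of 0.05. GAB2, a docking protein for PI3K and the phosphatase SHP2, was higher at 19.5 and 6.08 CPM (1.60). SHC1, an adaptor that links receptors to GRB2, was lower at 211 and 436 CPM, with a log2 fold change of -1.05 (-1.08 to -1.01), close to the threshold. PTPN11, which encodes SHP2, had 166 and 218 CPM (-0.39). Of 16 negative regulators and sheddases, 15 were tested, and 1, GRB10, was higher, with 39 and 2 reads. GRB10 passed the minimum of 10 reads only through the DR-labelled library. ADAM10, a sheddase, had 321 and 198 CPM (0.70), and CBL, a ubiquitin ligase of receptors, had 94.96 and 103 CPM (-0.12).

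**Figure D4:**
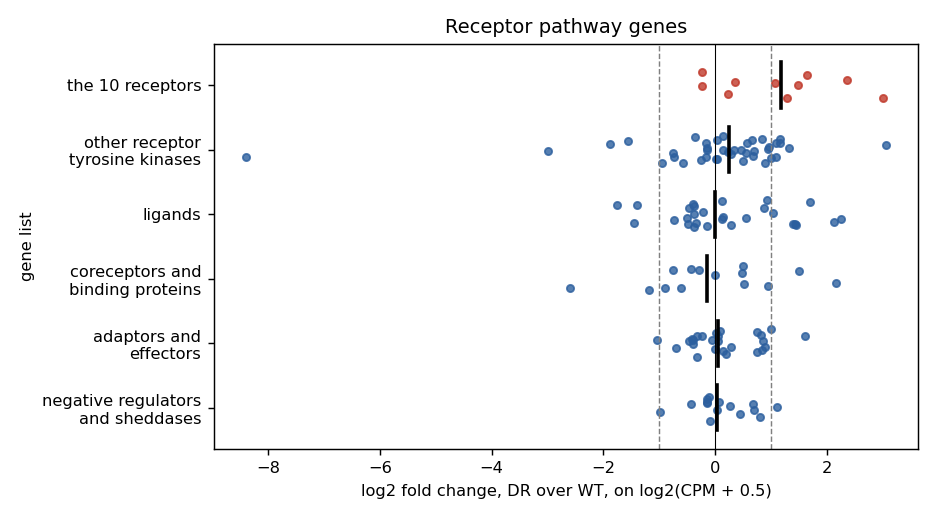
Log2 fold changes, the DR-labelled library over the WT-labelled library on log2(CPM + 0.5), of the tested genes of 6 lists, with 1 point per gene and a black bar at each median. Dashed lines mark -1 and 1. The median of the 10 receptors is 1.18 and the other medians lie between -0.14 and 0.25, with FGFR3 alone at the far left of the other receptor tyrosine kinases.

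The calls rest on low levels for several receptors. With a pseudocount of 5 CPM in place of 0.5 CPM, 1 of the 6 receptors stayed called, FGFR4 at a log2 fold change of 1.04, and PDGFRB fell to 0.80 and KIT to 0.56. Of the 10 receptors, 9 had fewer than 20 CPM in both libraries.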

How the data were processed

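RNA from 1 library labelled DR and 1 library labelled WT was sequenced. The authors deposited 1 table of 18930 genes with estimated counts per library, not scaled for library size, and a length in bases for each gene. The submitters' processing notes name Bowtie 0.12.2 and hg19 without saying for which step. The counting tool and annotation are not given in the sources used here. The table also holds the authors' own log2 ratio, p-value, q-value and direction, which were not used. Counts were missing for 663 genes, and 9108 of the other 18267 had fractional counts, which were rounded.

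Library sizes were scaled by TMM in edgeR 4.0.16 (factors 1.01 and 0.988, R 4.3.3), giving CPM. Calls left out 2057 genes whose reads summed to fewer than 10. Log2 fold changes were taken on log2(CPM + 0.5) and called at 1 or more in size. With 1 library per label, a quasi-likelihood fit in edgeR has no residual degrees of freedom, and no test was run. Ratios carry Clopper-Pearson and levels exact Poisson intervals at 95%, computed in Python 3.11.15 with SciPy 1.17.1. Both cover counting error only, since reads without molecular identifiers are not independent molecules. The fold and interval scripts were tested on simulated data.

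Genes named are the 10 receptors, FGFR3, from each pathway list the 4 called genes of largest log2 fold change at a mean of at least 1 CPM and the 2 highest mean CPM, defining markers, and the 3 genes nearest to 1 receptor. Other named genes were chosen after their values were seen. The receptors and lists were chosen with earlier results of these data known. Exon overlaps came from GENCODE 29 and were used for names only. Protein identity between the receptors was not analysed here. Alternatives were size factors of DESeq2 1.42.0, unscaled totals, a filter at 50 reads or none, pseudocounts of 0.1 and 5 CPM, a log2 threshold of 2, unrounded counts and, for the order, CPM not divided by length.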

Additional observations from a re-analysis of the deposited data

How the results depend on the processing

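No paired analysis was possible because each label has only 1 library, and for the same reason no replicate was left out. DESeq2's size factors, no filter and unrounded counts changed none of the counts of calls by over 1.5 times and moved no receptor outside its interval. With library totals and a filter at 50 reads the same held for the receptors, but the adaptors higher in the DR-labelled library went from 1 to 2 with totals, and the negative regulators higher went to 0 with the filter, under which EGFR was not tested. Ranking by CPM not divided by length left 7 of 10 receptors at the same rank in the DR-labelled library, and 9 in the other library.

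The pseudocount and the fold threshold moved the most results. At 0.1 CPM the log2 fold changes of EGFR (1.12), KIT (3.81) and PDGFRB (4.91) rose, and EGFR was then called. There 1726 of all genes were higher and 907 lower, against 1212 and 674 at 0.5 CPM. The coreceptors higher then numbered 5, the adaptors higher 2, the other receptor tyrosine kinases higher 14 and the negative regulators lower 1. At 5 CPM the receptors gave FGFR1 0.87, FGFR2 0.82, FGFR4 1.04, KIT 0.56, MET 0.40 and PDGFRB 0.80, so that 1 receptor was called. There 423 of all genes were higher and 333 lower, with 2 other receptor tyrosine kinases and 2 ligands higher, 0 coreceptors and 0 negative regulators higher, 1 coreceptor lower and 0 ligands lower. A log2 threshold of 2 left 2 receptors, PDGFRB and KIT, with 339 of all genes higher and 189 lower, 1 other receptor tyrosine kinase higher and 2 lower, 2 ligands higher and 0 lower, 1 coreceptor higher and 1 lower, and 0 adaptors in either direction and 0 negative regulators higher. Chosen after seeing the data, genes at a mean of 1 to 20 CPM gave 763 higher and 341 lower of 5428, and the 4 receptors with whole-number counts gave 2 higher. Depth limits EGFR, whose interval includes equality, and the size of the ratios of PDGFRB and KIT.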
